A study of Mus musculus with 7 samples.

Results

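The expression of 39 cell cycle and replication genes was examined in liver RNA-seq of 7 mice. The genes were taken from the deposited table of 23347 genes by a list of names and were split by the stage at which they act. The first 15 are G1/S and replication genes, which are switched on as a cell passes from G1 into S phase and copies its DNA. The other 24 are called mitotic genes here and are mostly expressed in G2 and mitosis. Many of them build the spindle, the kinetochores and the cytokinesis machinery, and others, such as Top2a, Foxm1 and Ube2c, have different roles. All 39 had enough reads to be tested, among 15179 tested genes in all.

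Control mice were B4galt1 flox/flox (n = 4, labelled WT), which carry B4galt1 flanked by recombination sites. The other group was labelled B4galt1 hep-/- (n = 3, B4-HKO), in which the same floxed alleles are combined with a Cre recombinase driven by the albumin promoter, so that the gene is meant to be deleted in hepatocytes and kept in the other cells of the liver. B4galt1 encodes a galactosyltransferase of the Golgi that adds galactose to N-glycans. All 7 were males on a C57BL/6 background, the controls being littermates, and all began the CDAHFD, a choline-deficient and fat-rich diet that brings on steatohepatitis, at 6 to 8 weeks of age and stayed on it for 15 weeks. Each mouse gave 1 library, so the replicates are separate animals.

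Total counts were 37838654 to 39668509 in B4galt1 flox/flox livers and 30608271 to 34586588 in livers labelled B4galt1 hep-/-, where 3 counts correspond to at most 0.0987 CPM, the read count scaled to library size with TMM, edgeR's normalization. Mitochondrially encoded genes took 3.88% to 8.0% of counts in the controls and 14.4% to 22.6% in the livers labelled hep-/-. B4galt1 itself stood at 48.7, 53.0, 49.2 and 51.6 CPM in flox/flox replicates 1 to 4 and at 28.4, 23.9 and 53.7 CPM in the 3 libraries labelled hep-/-. Replicate 3 of the group labelled hep-/- therefore lay above every control, and the difference between the groups did not pass (two-sided exact permutation p = 0.143, where 0.0286 is the smallest p that 4 against 3 mice allow). Summed hepatocyte markers stood at 82529 to 121982 CPM in the controls and at 96123 to 153946 CPM in the other livers. Calls of cell cycle genes that were lost without this library are named beside their results.

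As background, cells enter the cycle when mitogens raise D-type cyclins, whose kinases CDK4 and CDK6 phosphorylate the retinoblastoma protein and free E2F factors. E2F factors switch on cyclin E and the genes that license origins and make nucleotides. Among the genes held off by the DREAM complex in resting cells are most mitotic genes, which are driven later by MYB-MuvB and FOXM1. Hepatocytes of the adult liver are mostly at rest in G0, can re-enter the cycle after injury, and often become polyploid by copying DNA without completing division.

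The promoters of the mitotic genes and of the G1/S and replication genes held different motifs. RefSeq promoter windows, from 250 bases before to 50 bases after the transcription start (GRCm38.p6), were found for 11 of the 15 G1/S and replication genes and for 19 of the 24 mitotic genes. Those without a window were Ccnd1, Ccnd2, Ccne2, Mcm4, Ccna2, Aurkb, Kif20a, Tpx2 and Foxm1. Both strands were searched for an E2F motif spelled TTTCCCGC, TTTCGCGC, TTTGCCGC or TTTGGCGC, for the cell cycle homology region (CHR), spelled TTTGAA, which the DREAM and MYB-MuvB complexes bind, and for the CCAAT box, which NF-Y binds. E2F spellings can overlap one another. An E2F motif was present in 4 of 11 G1/S and replication genes (36.4%), all of them MCM genes (Mcm3, Mcm5, Mcm6 and Mcm7), in 1 of 19 mitotic genes (5.26%, Cdk1) and in 2.6% of the 27025 genes of the promoter table. The CHR had the opposite distribution, with 14 of 19 mitotic genes (73.7%), 1 of 11 G1/S and replication genes (9.09%, Mcm2) and 20.2% of all genes. CCAAT boxes were found in 17 of 19 mitotic genes (89.5%) and 8 of 11 G1/S and replication genes (72.7%), against 41.1% of all genes. A match of letters is not a measured binding site, and these shares were not tested.

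The 150 bases before the start of 8 members are shown 5′ to 3′ on the strand of the gene, with every motif match in capitals on either strand. Mcm5 and Mcm6 stand for the E2F-type promoter, and Pcna and Rrm1 are the called members with a window in the table.
Mcm5 (chr8:75109359-75109508, plus strand): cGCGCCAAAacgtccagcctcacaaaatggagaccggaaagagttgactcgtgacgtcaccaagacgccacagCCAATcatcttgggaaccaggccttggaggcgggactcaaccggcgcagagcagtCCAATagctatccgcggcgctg
Mcm6 (chr1:128359706-128359855, minus strand): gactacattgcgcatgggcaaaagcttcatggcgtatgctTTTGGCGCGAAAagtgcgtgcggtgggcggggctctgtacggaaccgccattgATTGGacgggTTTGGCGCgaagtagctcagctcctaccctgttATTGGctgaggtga
Pcna (chr2:132253181-132253330, minus strand): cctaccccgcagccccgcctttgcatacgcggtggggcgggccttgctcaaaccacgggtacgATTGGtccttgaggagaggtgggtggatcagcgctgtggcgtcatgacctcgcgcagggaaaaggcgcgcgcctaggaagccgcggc
Rrm1 (chr7:102441545-102441694, plus strand): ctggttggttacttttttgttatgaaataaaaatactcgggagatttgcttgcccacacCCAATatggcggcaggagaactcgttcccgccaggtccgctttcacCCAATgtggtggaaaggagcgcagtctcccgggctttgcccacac
Mcm6 holds 3 E2F matches, of which 2 overlap in the run TTTGGCGCGAAA, and Pcna and Rrm1 hold CCAAT boxes without either of the other motifs. Cdk1, Top2a, Cdc20 and Ube2c stand for the mitotic type, in which CHRs lie close to CCAAT boxes.
Cdk1 (chr10:69352913-69353062, minus strand): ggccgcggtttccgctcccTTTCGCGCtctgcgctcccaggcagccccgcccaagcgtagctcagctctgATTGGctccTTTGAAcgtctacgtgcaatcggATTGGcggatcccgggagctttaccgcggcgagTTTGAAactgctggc
Top2a (chr11:99024190-99024339, minus strand): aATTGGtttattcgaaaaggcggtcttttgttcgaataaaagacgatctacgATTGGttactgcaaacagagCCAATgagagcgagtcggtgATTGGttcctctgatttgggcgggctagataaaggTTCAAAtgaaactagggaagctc
Cdc20 (chr4:118437344-118437493, minus strand): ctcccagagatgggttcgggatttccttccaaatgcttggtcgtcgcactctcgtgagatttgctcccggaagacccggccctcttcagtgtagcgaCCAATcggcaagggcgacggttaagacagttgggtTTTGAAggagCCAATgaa
Ube2c (chr2:164769779-164769928, plus strand): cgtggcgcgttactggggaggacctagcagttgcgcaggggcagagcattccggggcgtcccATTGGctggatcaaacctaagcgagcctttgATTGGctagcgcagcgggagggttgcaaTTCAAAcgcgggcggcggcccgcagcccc
Cdk1 carries all 3 kinds of motif, its E2F match lying farther from the start than both CHR matches.

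**Figure D1:**
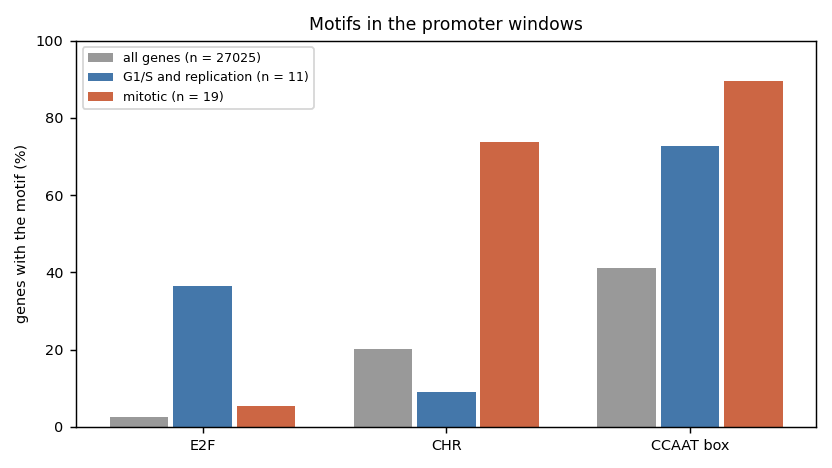
Share of genes (%) whose promoter window holds an E2F motif, a CHR or a CCAAT box, for all 27025 genes of the RefSeq promoter table (grey), 11 G1/S and replication genes (blue) and 19 mitotic genes (orange). E2F motifs stand out in the blue bars at 36.4% and CHRs in the orange bars at 73.7%.

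In livers labelled B4galt1 hep-/-, 5 of the 39 genes were called lower and none was called higher, when a call by edgeR's quasi-likelihood test needed an adjusted p below 0.05 and a log2 fold change beyond 0.58 in either direction. The called genes were Ccnd1, Mcm4, Pcna and Rrm1 among the G1/S and replication genes (4 of 15) and Tpx2 among the mitotic genes (1 of 24). Of all genes tested, 7.83% were called lower and 8.0% higher by the same rule. At an unadjusted p under 0.05, 12 members were lower and none was higher, 9 of the 12 being G1/S and replication genes, where 16.1% of all genes were lower and 16.8% higher. DESeq2 called 9 members lower and none higher. Of the 22960 genes with any count it called 6.8% lower and 7.4% higher (1562 and 1699 genes). That base is wider than the 15179 genes of edgeR, of which 1189 were called lower and 1215 higher. On the FPKM scale, which divides by the library total and lowers the median of all genes by 0.12 to 0.13 on the log2 scale, 18.2% to 24.5% of all calls were higher in livers labelled hep-/-, against 50.5% with counts.

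The count depended on single animals. Only Ccnd1 was called without flox/flox replicate 2, without hep-/- replicate 2 or without hep-/- replicate 3, the library whose B4galt1 level went against its label. In these fits 3.16%, 3.84% and 7.51% of all genes were called lower. With hep-/- replicate 1 left out, 10 members were called lower (5.21% of all genes), and with flox/flox replicates 3 or 4 left out 3 and 2 were (4.71% and 5.35% of all genes). Without flox/flox replicate 1 the number stayed at 5 (7.41% of all genes), with Kif20a called in place of Tpx2. Ccnd1 was called in each of these fits.

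The G1/S and replication genes had a median log2 fold change of -0.80 and the mitotic genes of -0.35, beside 0.02 over all genes tested. Of the 15 G1/S and replication genes 13 had a negative log2 fold change, all but Mcm7 and Rrm2, and of the 24 mitotic genes 16 had one, against 48.7% of all genes. In 5 of the 15 and 4 of the 24, every liver labelled hep-/- lay below every control, a pattern seen in 15.0% of all genes, and in no member did every such liver lie above, a pattern seen in 13.6% of all genes. For the mitotic genes that count was near the share of all genes. Whether both groups of genes differed in their change was not tested.

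**Figure D2:**
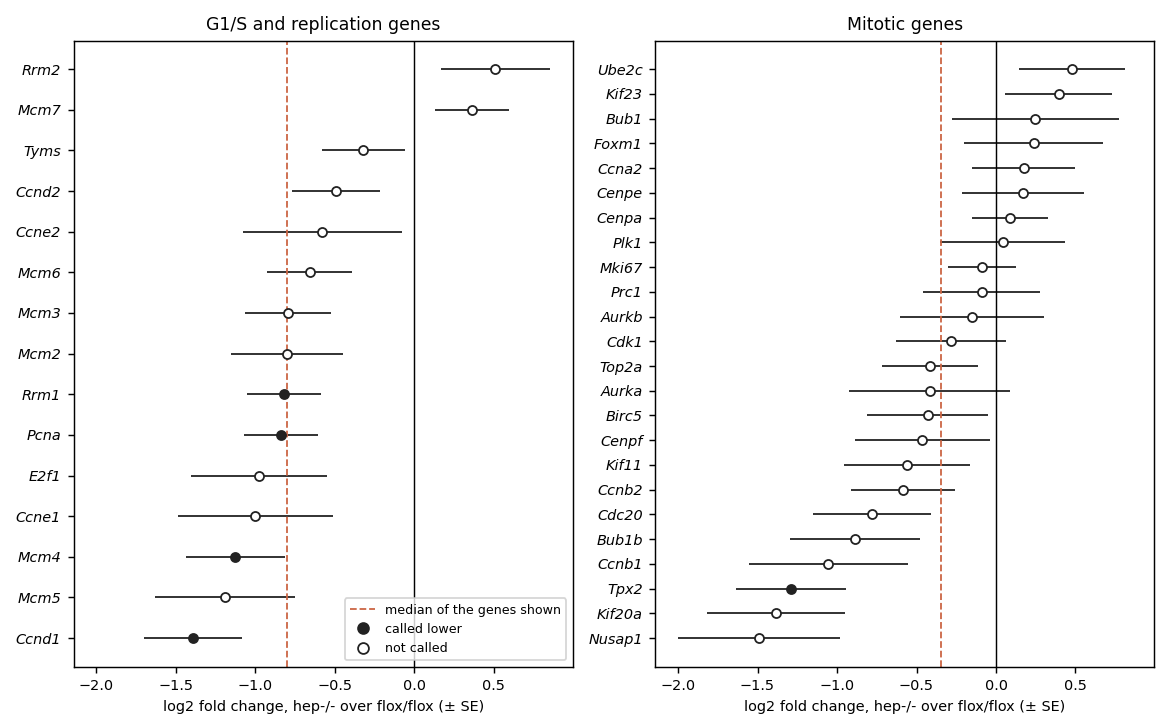
Log2 fold change of each gene, livers labelled B4galt1 hep-/- (n = 3) over B4galt1 flox/flox livers (n = 4), with bars of 1 standard error, for 15 G1/S and replication genes (left) and 24 mitotic genes (right). Filled points are the 5 genes called lower, and dashed lines mark the medians of -0.80 and -0.35.

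The D-type cyclins are the entry point of the mitogenic signal. Ccnd1, which encodes cyclin D1 (NCBI gene 12443), stood at 179.9, 285.4, 175.0 and 162.5 CPM in flox/flox replicates 1 to 4 and at 114.4, 64.0 and 51.2 CPM in hep-/- replicates 1 to 3. All 3 livers labelled hep-/- were below all controls, with replicate 1 the nearest to them and flox/flox replicate 2 far above the other controls. Its level was 201 ± 57.0 (SD, n = 4) against 76.5 ± 33.4 CPM (SD, n = 3), a log2 fold change of -1.39 ± 0.31 (SE; edgeR adjusted p = 0.014). Over every alternative fit the adjusted p of Ccnd1 lay between 0.000157 and 0.046. Of its exonic bases 23.4% overlap LTO1 on the other strand, and the sources used here do not say whether reads were counted by strand.

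Per length of transcript Ccnd1 was also the most abundant of the 39 in the controls, at 55.3 ± 15.1 FPKM (SD, n = 4) against 19.3 ± 7.78 (SD, n = 3). Cyclin D2 (Ccnd2), its close relative, was at 1.63 ± 0.619 and 1.04 ± 0.123 FPKM, with a log2 fold change in CPM of -0.49 (adjusted p = 0.240) and overlapping groups. The FPKM ratio of Ccnd1 to Ccnd2 was 31.4, 49.6, 21.2 and 46.6 in the controls and 23.7, 17.4 and 13.1 in livers labelled hep-/-, so that flox/flox replicate 3 and hep-/- replicate 1 overlapped.

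The E-type cyclins, which activate CDK2 at the start of S phase, were present at much lower levels than Ccnd1. Ccne1 was at 3.43, 2.91, 1.10 and 1.53 CPM in the controls and at 1.62, 0.814 and 0.921 CPM in livers labelled hep-/-. The controls were spread widely and the groups overlapped, with a log2 fold change of -1.0 ± 0.49 (SE) that did not pass (adjusted p = 0.176). Ccne2 ranged from 0.621 to 2.34 CPM in the controls and from 0.935 to 1.22 CPM in the other livers (log2 fold change -0.58, adjusted p = 0.448). E2f1, the activating E2F factor, was at 3.2, 4.72, 3.94 and 3.33 CPM and at 3.47, 1.27 and 1.05 CPM, where hep-/- replicate 1 lay among the controls and the others well below (log2 fold change -0.97 ± 0.43, adjusted p = 0.137).

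The MCM2 to MCM7 proteins form the ring-shaped helicase that is loaded at origins in G1 and unwinds DNA in S phase. Mcm4 (NCBI gene 17217) was at 8.0, 12.5, 7.78 and 7.60 CPM in the controls and at 5.32, 2.53 and 4.47 CPM in livers labelled hep-/-. The groups did not overlap, flox/flox replicate 2 stood above the other controls, and the log2 fold change was -1.13 ± 0.31 (SE; adjusted p = 0.032). The call was lost in 3 of the 7 fits that left out 1 mouse, where the adjusted p reached 0.109 and was 0.057 without hep-/- replicate 3. Mcm5 had a change of similar size, -1.19 ± 0.44, and did not pass with edgeR (adjusted p = 0.085), while it did with DESeq2 (adjusted p = 0.029).

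Its values were 4.78, 9.91, 5.18 and 3.25 CPM in the controls against 3.93, 1.42 and 2.27 CPM, hep-/- replicate 1 exceeding the lowest control. Mcm3 was separated in all mice, with 9.06, 13.7, 8.43 and 7.91 CPM against 6.49, 6.06 and 4.34 CPM (log2 fold change -0.79 ± 0.27), and its adjusted p of 0.064 missed the threshold with edgeR but not with DESeq2 (0.033) or voom (0.042). Mcm2 was at 8.76, 13.1, 6.21 and 8.50 CPM against 8.12, 4.52 and 3.09 CPM (log2 fold change -0.80, adjusted p = 0.137). In Mcm2 as in Mcm6, whose values were 11.3, 16.9, 13.7 and 10.4 CPM against 11.4, 7.24 and 6.25 CPM (log2 fold change -0.66, adjusted p = 0.110), replicate 1 labelled hep-/- lay within the control range and the others below it. With that replicate left out, Mcm2, Mcm5 and Mcm6 were called at adjusted p of 0.0463, 0.0496 and 0.0485.

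Mcm7 stood apart from the other subunits of the ring. It was at 12.3, 17.3, 12.6 and 11.1 CPM in the controls and at 18.7, 20.4 and 12.3 CPM in livers labelled hep-/-, with overlapping groups and a log2 fold change of 0.36 ± 0.23 that did not pass (adjusted p = 0.302). In FPKM, the ratio of Mcm7 to the mean of Mcm2 to Mcm6 was 1.82, 1.61, 1.92 and 1.83 in the controls and 3.33, 5.82 and 3.76 in livers labelled hep-/-. The ratio was higher in each of the 3 livers than in any control, a comparison chosen after the values were seen and therefore not tested. The reads of Mcm7 are uncertain to assign, since 12.6% of its exonic bases overlap other genes, among them Ap4m1 and Cops6 on the other strand, and 18.1% of its 50-base words occur in other genes, among them Gm5487.

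Pcna encodes the sliding clamp that holds DNA polymerase on its template and was, after Ccnd1, the most abundant member per length (36.9 ± 9.17 FPKM, SD, n = 4). In CPM it was at 34.2, 48.0, 57.6 and 39.3 in the controls and at 29.2, 18.3 and 27.6 in livers labelled hep-/-. The groups did not overlap, although hep-/- replicate 1 came close to flox/flox replicate 1, and Pcna fell by 0.84 ± 0.24 (SE) on the log2 scale (NCBI gene 18538, adjusted p = 0.034). The call was lost in 5 of the 7 fits that left out 1 mouse, where the adjusted p reached 0.102 and was 0.054 without hep-/- replicate 3. A pseudogene, Pcna-ps2, shares 19.1% of its 50-base words.

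Ribonucleotide reductase and thymidylate synthase supply deoxynucleotides. Rrm1, the large subunit of the reductase (NCBI gene 20133), was at 14.0, 22.1, 14.2 and 16.2 CPM in the controls and at 10.8, 7.66 and 9.83 CPM in livers labelled hep-/-. It separated the groups and fell by 0.82 ± 0.23 (SE) on the log2 scale (adjusted p = 0.035), a call lost in 4 of the 7 fits with 1 mouse left out, where the adjusted p reached 0.115 and was 0.064 without hep-/- replicate 3. Rrm2, the small subunit, which is made in S phase and limits the enzyme's activity, had a log2 fold change of the other sign, 0.51 ± 0.34 (adjusted p = 0.325).

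Rrm2 values were 1.98, 3.44, 4.12 and 3.05 CPM in the controls and 4.48, 2.96 and 6.02 CPM in the other livers, so that the groups overlapped. The FPKM ratio of Rrm2 to Rrm1 was 0.258, 0.285, 0.531 and 0.344 in the controls and 0.758, 0.707 and 1.12 in livers labelled hep-/-, without overlap. This ratio, like that of Mcm7, was chosen after the values were seen. Tyms ranged from 6.44 to 8.73 CPM in the controls and from 4.84 to 7.95 CPM in the other livers (log2 fold change -0.32, adjusted p = 0.418).

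**Figure D3:**
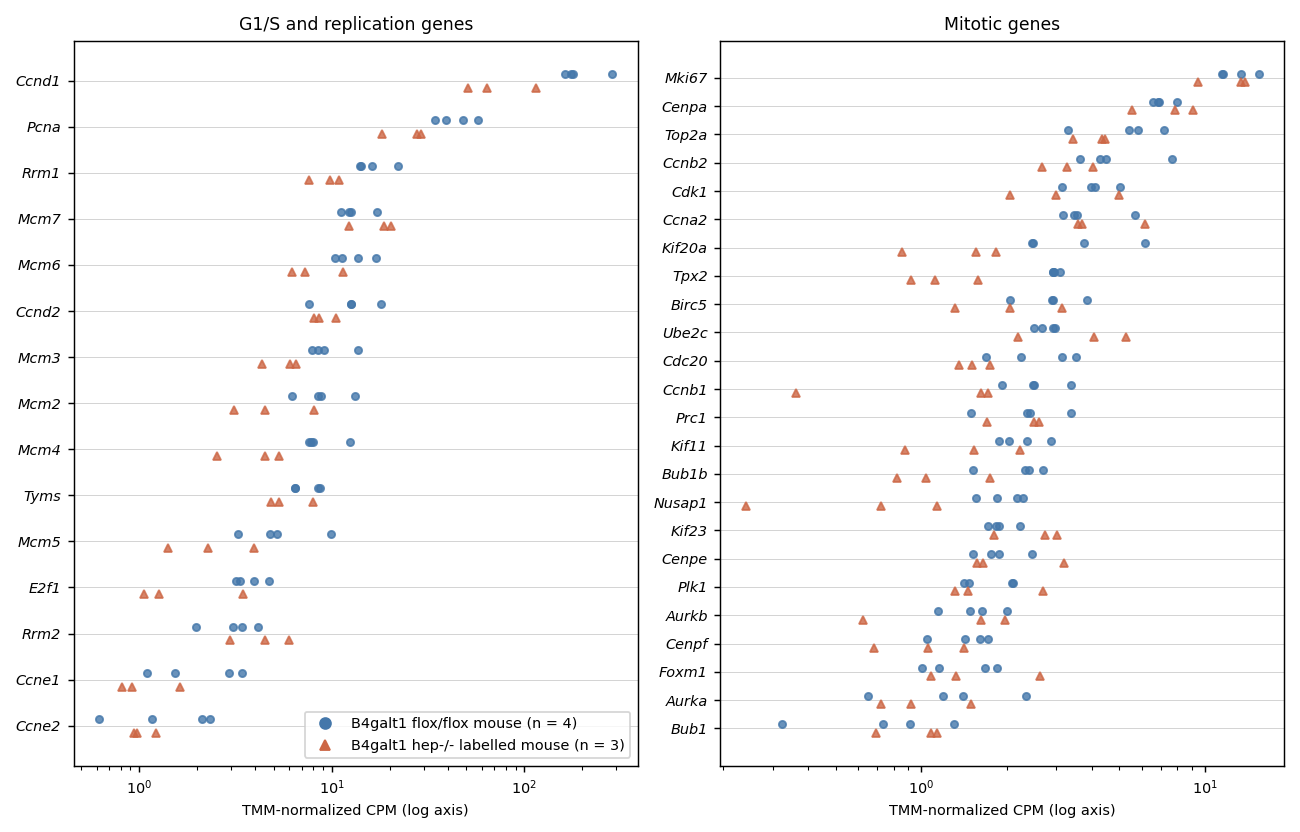
TMM-normalized CPM (log axis) of each of the 39 genes in each mouse, with B4galt1 flox/flox livers as blue circles (n = 4) and livers labelled B4galt1 hep-/- as orange triangles (n = 3). Circles and triangles separate for Ccnd1, Pcna, Rrm1, Mcm3 and Mcm4 on the left and for Tpx2, Kif20a, Nusap1 and Ccnb1 on the right, and most mitotic genes lie under 3 CPM.

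Mitotic genes were scarcer. Their median level was 0.803 FPKM in the controls and 0.609 in livers labelled hep-/-, against 2.59 and 1.48 FPKM for the G1/S and replication genes. In CPM, 17 of the 24 averaged under 3 in the controls, and the lowest count of a member in any library was 8 for mitotic and 27 for G1/S and replication genes. Most mitotic values thus rest on few reads. In whole liver RNA, fewer dividing cells and less of a transcript in each of them cannot be told apart, here as in the G1/S and replication genes.

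Mki67, which encodes the Ki-67 protein that coats mitotic chromosomes, was at 13.5, 15.5, 11.5 and 11.6 CPM in the controls and at 13.4, 13.8 and 9.51 CPM in livers labelled hep-/-. The groups overlapped, with a log2 fold change of -0.09 ± 0.21 (SE; adjusted p = 0.802). Its sign turned to 0.0044 without flox/flox replicate 2 and to 0.05 without hep-/- replicate 3. Top2a, the topoisomerase that untangles sister DNA, was at 5.43, 5.82, 7.17 and 3.31 CPM against 4.35, 4.46 and 3.42 CPM (log2 fold change -0.41, adjusted p = 0.367), with flox/flox replicate 4 as the lowest of all mice.

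The kinase Cdk1 and its cyclins, which together drive entry into mitosis, had no call. Cdk1 was at 3.15, 5.02, 3.98 and 4.10 CPM against 4.97, 2.05 and 2.99 CPM (log2 fold change -0.28, adjusted p = 0.599), and the groups overlapped. Cyclin A2 (Ccna2) was at 3.45, 5.70, 3.16 and 3.53 CPM against 6.14, 3.68 and 3.59 CPM (log2 fold change 0.17, adjusted p = 0.738), with flox/flox replicate 2 and hep-/- replicate 1 above the rest of their groups.

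Cyclin B1 (Ccnb1) was at 2.48, 3.39, 2.51 and 1.92 CPM in the controls and at 1.72, 1.63 and 0.362 CPM in livers labelled hep-/-. The groups did not overlap, but the log2 fold change of -1.05 ± 0.50 (SE) did not pass (adjusted p = 0.164), and 23.4% of its 50-base words occur in other genes, among them Ccnb1-ps. Ccnb2 ranged from 3.63 to 7.65 CPM in the controls and from 2.66 to 4.04 CPM in the other livers (log2 fold change -0.59, adjusted p = 0.233).

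The spindle gene Tpx2, which activates Aurora A kinase and nucleates microtubules near chromosomes, was the mitotic member that passed (NCBI gene 72119). It was at 3.08, 2.91, 2.95 and 2.91 CPM in the controls and at 1.59, 1.12 and 0.921 CPM in livers labelled hep-/-. The controls were nearly equal and every other liver lay far below them, with a log2 fold change of -1.29 ± 0.35 (SE; adjusted p = 0.029). The call was lost in 6 of the 7 fits that left out 1 mouse, where the adjusted p reached 0.084 and was 0.066 without hep-/- replicate 3.

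Kif20a and Nusap1 came close to the threshold with edgeR and passed with DESeq2. Kif20a, a kinesin needed for cytokinesis, was at 2.48, 6.15, 3.75 and 2.46 CPM in the controls and at 1.56, 1.84 and 0.855 CPM in livers labelled hep-/- (log2 fold change -1.38 ± 0.44, adjusted p = 0.051). Nusap1, which bundles spindle microtubules, was at 1.56, 2.28, 1.85 and 2.18 CPM against 1.14, 0.241 and 0.724 CPM (log2 fold change -1.49 ± 0.51, adjusted p = 0.067). In both genes every liver labelled hep-/- was below every control. Of the exonic bases of Kif20a, 29.3% overlap Cdc23 on the other strand.

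The mitotic kinases and the factor that drives their transcription showed no call. Plk1, which acts from centrosomes to cytokinesis, was at 1.47, 2.11, 2.09 and 1.41 CPM in the controls and at 1.46, 2.68 and 1.32 CPM in the other livers. Its log2 fold change of 0.04 ± 0.39 (adjusted p = 0.954) changed sign in 6 alternative fits, among them -0.35 without hep-/- replicate 2, the liver with the most Plk1. Aurka ranged from 0.650 to 2.33 CPM in the controls and from 0.724 to 1.49 CPM in the other livers (log2 fold change -0.42, adjusted p = 0.599), and Aurkb from 1.15 to 2.01 and from 0.625 to 1.98 CPM (log2 fold change -0.15, adjusted p = 0.845).

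Foxm1, the forkhead factor that acts on CHR promoters together with MYB-MuvB, was at 1.68, 1.86, 1.01 and 1.16 CPM in the controls and at 1.33, 2.62 and 1.09 CPM in livers labelled hep-/-. The groups overlapped (log2 fold change 0.24, adjusted p = 0.735), and without hep-/- replicate 2 the log2 fold change was -0.24. In the spindle checkpoint, Bub1b was at 2.39, 2.69, 2.32 and 1.53 CPM against 1.04, 1.75 and 0.822 CPM (log2 fold change -0.89 ± 0.41, adjusted p = 0.152), and Bub1 showed a log2 fold change of 0.25 (adjusted p = 0.775).

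The 13 mitotic genes that are not given mouse by mouse, none of which passed, lay between log2 fold changes of -0.78 for Cdc20, the activator of the anaphase-promoting complex, and 0.48 for Ube2c, the ubiquitin-conjugating enzyme that works with it. Cdc20 ranged from 1.70 to 3.51 CPM in the controls and from 1.36 to 1.75 CPM in livers labelled hep-/- (adjusted p = 0.167), whereas Ube2c ranged from 2.51 to 2.97 and from 2.20 to 5.26 CPM (adjusted p = 0.345). Both hold CHR and CCAAT motifs in the stretches printed above. Cenpa, the centromeric histone and the most abundant mitotic gene per length (4.29 ± 0.370 FPKM, SD, n = 4), showed a log2 fold change of 0.09 (adjusted p = 0.828).

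The further motor, passenger and kinetochore genes had values of both signs, 4 of 6 negative. Kif11, the motor that separates the poles, showed a log2 fold change of -0.56 (adjusted p = 0.354), and Kif23, of the central spindle, of 0.39 (adjusted p = 0.442). Birc5, the survivin of the chromosomal passenger complex, was at -0.43 (adjusted p = 0.462) and the kinetochore genes Cenpf and Cenpe at -0.46 (adjusted p = 0.477) and 0.17 (adjusted p = 0.788). Prc1, which bundles midzone microtubules, was at -0.09 (adjusted p = 0.886). Ube2c and Prc1 overlap genes of the other strand over 22.8% and 11.1% of their exonic bases.

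The median change of members with and without each motif is given as a description. The 4 G1/S and replication genes with an E2F motif had a median log2 fold change of -0.73 and the 7 without one of -0.82. The 14 mitotic genes with a CHR had a median of -0.35 and the 5 without one of -0.43. With and without a CCAAT box the medians were -0.80 (8 genes) and -0.97 (3 genes) among G1/S and replication genes and -0.28 (17 genes) and -0.96 (2 genes) among mitotic genes. These medians are descriptions over few genes and were not tested.

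Summed over the 15 G1/S and replication genes, controls held 353 ± 82.6 CPM (SD, n = 4, range 290 to 473) and livers labelled hep-/- 178 ± 51.9 CPM (SD, n = 3, range 144 to 237). Without Ccnd1, which has by far the highest level of the 15, the sums were 153 ± 28.8 against 101 ± 19.2 CPM, with ranges of 127 to 188 and 87.5 to 123. The mitotic genes summed to 77.3 ± 12.6 CPM (range 67.5 to 95.6) against 64.8 ± 13.0 CPM (range 49.9 to 74.0), so that their sums overlapped.

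Dividing each gene by its control mean gave the level of a typical gene in each mouse. For the G1/S and replication genes the median of these relative levels was 0.864, 1.30, 0.944 and 0.836 in the controls and 0.724, 0.494 and 0.499 in livers labelled hep-/-. For the mitotic genes it was 0.918, 1.22, 0.979 and 0.871 in the controls and 0.901, 0.835 and 0.716 in the other livers. Replicate 1 labelled hep-/- thus lay among the controls for mitotic genes but below them for G1/S and replication genes.

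Within groups, the same mice tended to be high or low in many members. Of the 4 controls, flox/flox replicate 2 had the highest value in 10 of 15 G1/S and replication genes and in 17 of 24 mitotic genes. Of the 3 livers labelled hep-/-, replicate 1 was the highest in 12 of 15 G1/S and replication genes and replicate 3 the lowest in 17 of 24 mitotic genes. Members are measured in the same libraries, so their agreement within a mouse adds no replicate.

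**Figure D4:**
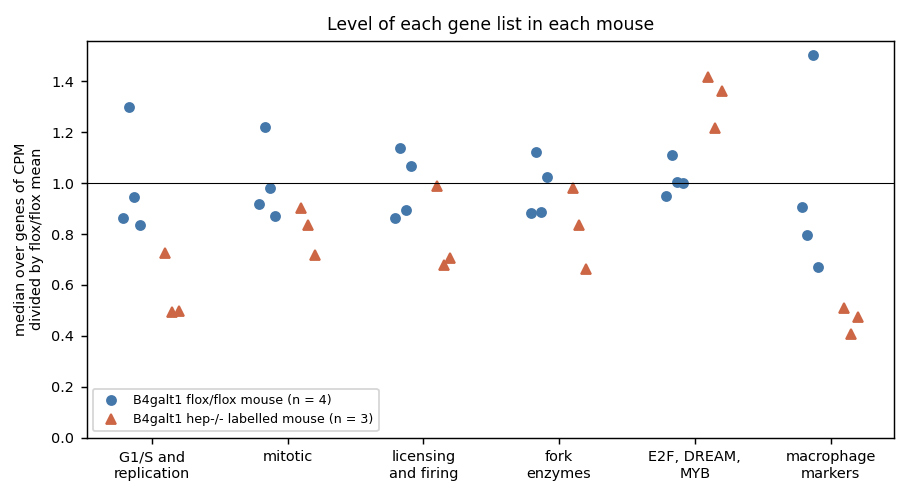
Median over the genes of a list of CPM divided by the control mean, in each B4galt1 flox/flox liver (blue circles, n = 4) and each liver labelled B4galt1 hep-/- (orange triangles, n = 3). For G1/S and replication genes the triangles lie at 0.494 to 0.724, below all circles at 0.836 to 1.30, for mitotic genes at 0.716 to 0.901 they overlap the circles, and for the E2F, DREAM and MYB list they lie above.

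Around these members, 120 of 122 listed genes of the cell cycle machinery were tested, of which 8 were called lower (6.67%, against 7.83% of all genes) and 4 higher (3.33%, against 8.0% of all genes), with a median log2 fold change of -0.16. Orc1 and Il6 were not tested for want of counts. Of the CDK inhibitors, Cdkn1a was called higher. It encodes p21, which blocks the kinases that cyclins D, E and A activate and PCNA at the fork, and it was at 15.4, 23.8, 32.8 and 21.2 CPM in the controls and at 77.4, 78.7 and 164 CPM in livers labelled hep-/-. Every such liver exceeded every control, with replicate 3 the highest (log2 fold change 2.20 ± 0.31, adjusted p = 0.003), and the call held in all 19 alternative fits.

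Cdkn1b, which encodes p27, showed a log2 fold change of 0.40 (adjusted p = 0.216), and no other gene of its list of 10 was called. Of the kinase partners of Ccnd1, Cdk4 was at 42.7, 42.9, 41.7 and 42.2 CPM in the controls and at 37.6, 35.3 and 33.4 CPM in livers labelled hep-/-. It separated the groups by a small step that did not pass (log2 fold change -0.26, adjusted p = 0.276). Cdk6 was called lower at -0.60 (adjusted p = 0.047), a call lost in 12 of the 19 alternative fits, among them that without hep-/- replicate 3 (adjusted p = 0.116).

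At the replication fork, Rpa1, the large subunit of the single-strand binding protein RPA, was at 21.7, 29.1, 29.2 and 21.0 CPM in the controls and at 11.3, 9.02 and 9.70 CPM in livers labelled hep-/-. Mcm10, which helps to activate the MCM ring at origins, was at 54.4, 62.4, 42.7 and 73.7 CPM against 25.3, 21.4 and 28.8 CPM. Both separated the groups clearly, with log2 fold changes of -1.34 ± 0.21 (adjusted p = 0.004) and -1.21 ± 0.22 (adjusted p = 0.007), and both were called in every alternative fit. Of their lists, 1 of 21 fork enzymes was called lower (4.76%) and 1 of 16 tested origin genes in each direction (6.25% each). These shares lie under the 7.83% lower and 8.0% higher of all genes. DESeq2 called 3 origin genes lower and 2 higher, against 6.8% and 7.4% of its 22960 genes. Orc4 was the origin gene that edgeR called higher (log2 fold change 0.87, adjusted p = 0.028). The call of Orc4 was lost in 7 of 19 fits, among them that without hep-/- replicate 3 (adjusted p = 0.055).

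The checkpoint kinase Wee1, which holds CDK1 inactive, was called lower at -0.98 ± 0.21 (adjusted p = 0.013) and Ccng2, an atypical cyclin linked to arrest, higher at 1.14 ± 0.32 (adjusted p = 0.035). Wee1 was called in all 19 alternative fits, and Ccng2 lost its call in 6, among them the fit without hep-/- replicate 3 (adjusted p = 0.102). At the kinetochore, Spc25 was called lower at -1.24 (adjusted p = 0.036) and Zwint at -0.60 (adjusted p = 0.047), 2 of 12 genes against 7.83% of all genes. The call of Spc25 was lost in 7 of 19 fits, among them that without hep-/- replicate 3 (adjusted p = 0.087), and the call of Zwint in 9, which included 6 of the 7 fits that left out 1 mouse. In the E2F, DREAM and MYB list of 15 the median log2 fold change was positive, at 0.38, with 12 positive values. Its 1 call (6.67%, against 8.0% of all genes called higher) was Lin37 of the MuvB core (0.82, adjusted p = 0.026). The call of Lin37 was lost in 6 of 19 fits. Of condensin and cohesin and of damage checkpoint genes, 0 of 10 were called in each list by edgeR and 0 by DESeq2, while at an unadjusted p under 0.05 each list had 1 lower and 1 higher.

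Among growth factors and receptors that bring hepatocytes into the cycle, 2 of 12 tested genes were called lower, against 7.83% of all genes. They were the receptor Egfr (log2 fold change -0.96, adjusted p = 0.038) and its ligand Tgfa (-0.83, adjusted p = 0.023). DESeq2 called 4 lower, against 6.8% of its wider base of 22960 genes. The call of Egfr was lost in 8 of 19 fits, among them that without hep-/- replicate 3 (adjusted p = 0.075), and the call of Tgfa in 5. Myc, an early response gene upstream of Ccnd2, was at 16.4, 26.9, 14.9 and 20.9 CPM in the controls and at 18.1, 18.8 and 84.4 CPM in livers labelled hep-/-. A single liver, replicate 3, made its log2 fold change of 1.03 (adjusted p = 0.147), which was -0.11 without it.

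**Figure D5:**
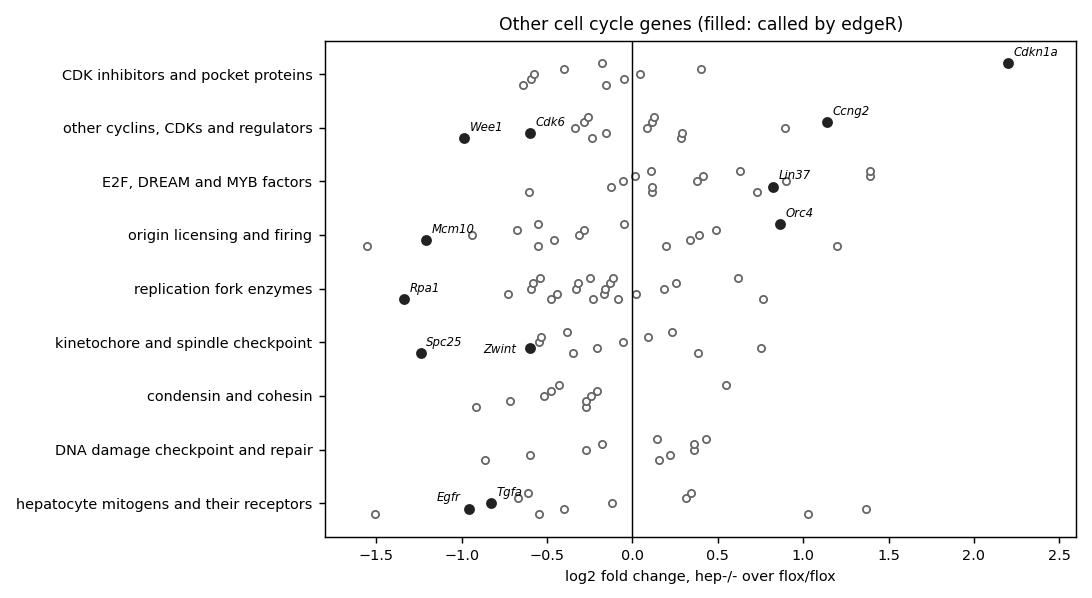
Log2 fold change, livers labelled B4galt1 hep-/- over B4galt1 flox/flox livers, of 120 further cell cycle genes in 9 lists, 1 point per gene. Filled and named points are the 12 genes called by edgeR, 4 to the right of 0 (Cdkn1a, Ccng2, Lin37 and Orc4) and 8 to the left.

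Other features of the libraries moved with the groups. Of 10 macrophage and Kupffer cell markers, 5 were called lower (Lyz2, Cd68, Adgre1, Vsig4 and Marco) and all 10 had a negative log2 fold change, with a median of -0.96. Their summed level was 927 to 2199 CPM in the controls and 447 to 500 CPM in livers labelled hep-/-, and none of them was at 0 in any library. Macrophages can divide and carry the same transcripts as other dividing cells, and the part of macrophages in the lower cell cycle transcripts was not tested. Of 8 hepatocyte and 10 lymphocyte markers edgeR called none, with 1 hepatocyte marker lower and 1 higher and 1 lymphocyte marker higher at an unadjusted p under 0.05, and DESeq2 called the same numbers. The 3.88% to 8.0% and 14.4% to 22.6% of mitochondrial counts also separated the groups, and with those genes taken out the same 5 members were called.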

How the data were processed

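Liver RNA of 7 mice was sequenced, and all 7 libraries were used. The authors extracted RNA with TRIzol, built libraries with a VAHTS kit and deposited un-normalized counts per gene. They also deposited FPKM values, which were found to equal the count divided by a fixed gene length and the library total. The submitters' processing notes name fastp, HISAT2, HTSeq, DESeq2, R 3.2.0 and GRCm39, without roles. The study's methods name DESeq2 for its differential expression and R for its enrichment analysis. The annotation and the strand setting of counting are not given in the sources used here. No column of sample values was left unused (0).

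With edgeR 4.0.16 under R 4.3.3, counts were filtered by filterByExpr (minimum count 10, minimum total 15), scaled by TMM and fitted with the genotype group alone. Quasi-likelihood F-tests were adjusted by Benjamini-Hochberg over 15179 genes, and a call needed an adjusted p below 0.05 and a log2 fold change beyond 0.58 in either direction. CPM values are TMM-normalized, and standard errors were derived from the F statistic. B4galt1 was compared by an exact permutation test in scipy 1.17.1.

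The members and gene lists were chosen with earlier results of these data known. Members given mouse by mouse were those called, 13 fixed landmarks and the 6 further members with the lowest p. Mcm7 was added after its values were seen. Of the other lists the text names the called genes, Cdkn1a, Cdkn1b, Cdk4 and Myc. Promoter windows were RefSeq's on GRCm38.p6. Overlaps and shared 50-base words came from the GENCODE annotation of GRCm38, a different build from that of the counts, so no coordinates of the counts are given. Alternatives were RLE and upper-quartile normalization, DESeq2 1.42.0, voom with sample weights and limma 3.58.1 on log2(FPKM + 1) or log2(FPKM + 0.1), other filters, no fold change threshold, the replicate number as a block, the 13 mitochondrial genes left out, and each mouse left out. A pseudocount understates the change of genes with low FPKM.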

Additional observations from a re-analysis of the deposited data

Results flagged for a closer look

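In 3 of 55 genes checked, 1 control lay so far from the other 3 that it exceeded Dixon's 95% critical value, a test that chance alone passes in about 1 of 20 groups. All 3 values belong to B4galt1 flox/flox replicate 2 and all are the highest of their group. Ccnd1 was at 285.4 CPM there, against 162.5 to 179.9 CPM in the other controls. Mcm4 was at 12.5 CPM against 7.60 to 8.0 CPM, and Ccna2 at 5.70 CPM against 3.16 to 3.53 CPM. Without this mouse Ccnd1 was still called lower and Mcm4 was not.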

How the results depend on the processing

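All 39 members were tested in the count-based fits other than the filter of at least 10 counts in every mouse (38), and 21 in the FPKM fits with a minimum of 1. RLE and upper-quartile normalization, that filter, no fold change threshold and the fit without mitochondrially encoded genes gave the same 5 member calls. DESeq2 called 9 members, 3 of them mitotic, voom 8 and 3, and a filter asking only for 1 count in 1 mouse 7 and 2, all lower. The shares of genes called lower in these fits were 6.8% of 22960, 9.53% of 15179 and 5.93% of 22960. On log2(FPKM + 1) and log2(FPKM + 0.1) with that minimum, 5 of the 21 members were called lower, where 15.9% and 17.8% of all genes tested were. On log2(FPKM + 1) over all genes 3 members were called lower, where 4.74% of genes were (1330 genes called in all, against 2404). The FPKM fits called 0 mitotic genes, but Tpx2 was not among the 21 members tested with the minimum. The fit on log2(FPKM + 0.1) called 21 other cell cycle genes, against 12. FPKM shifted the median of all genes by -0.12 to -0.13 and lowered the share of higher calls from 50.5% to between 18.2% and 24.5%. B4galt1 was called lower at -0.67 and -0.73 in the filtered FPKM fits.

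With 1 mouse left out, the calls ranged from 885 to 2396 genes, 1 to 10 members, 1 to 8 G1/S and replication members, 0 to 2 mitotic members and 4 to 9 other cell cycle genes, and B4galt1 from -0.96 (without hep-/- replicate 3, called) to -0.30. The member medians stayed negative, at -0.97 to -0.59 and at -0.38 to -0.17.

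The replicate numbers do not pair the mice, since same-numbered mice correlated at -0.42, -0.10 and 0.09. With the replicate block, in which flox/flox replicate 4 has no partner and carries no weight, 1267 genes, 1 member (Ccnd1), 1 G1/S and replication member, 0 mitotic members and 6 other cell cycle genes were called.

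Of 686 values of 37 named genes over the alternatives, 572 kept their side of the threshold, 84 lost their call, 18 gained one and 12 changed sign, none of these called. Plk1 was at -0.24 with voom, -0.037 on log2(FPKM + 1) over all genes, -0.10 with the replicate block and with 1 mouse left out at -0.35 (without hep-/- replicate 2) to 0.22, being negative in 3 of those fits. Foxm1 was at -0.15 with voom. With 1 mouse left out, Foxm1 ranged from -0.24 (without hep-/- replicate 2) to 0.46, Ccna2 from -0.14 (without hep-/- replicate 1) to 0.40, Mki67 from -0.19 to 0.055 (without hep-/- replicate 3) and Myc from -0.11 (without hep-/- replicate 3) to 1.37. The causes were not tested.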

Other observations

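Among markers of other cells of the liver, Kdr, the receptor for VEGF on endothelial cells, was called lower (log2 fold change -1.33, adjusted p = 0.044, edgeR), 1 of 6 endothelial markers, while voom called 0. Flox/flox replicate 3 stood above the other controls in Kdr (35.2 CPM against 10.3 to 21.7) and in the summed endothelial markers. Of 5 tested erythroid markers, Alas2, the first enzyme of heme synthesis in red cell precursors, was called lower (-1.24, adjusted p = 0.010) and Hba-a1, an alpha globin, higher (1.11, adjusted p = 0.045). The Hba-a1 values of both groups overlapped. Of 7 stellate cell, 5 cholangiocyte and 4 tested neutrophil markers 0 were called by edgeR, DESeq2 or voom, with 1 neutrophil marker higher at an unadjusted p under 0.05 and 0 in the other 2 lists.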
